A study of Capra hircus with 6 samples.

Results

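The 10 genes described here are known from the choroid plexus, the epithelium that makes cerebrospinal fluid, and from the ependyma, the ciliated lining of the brain ventricles. They were TTR, KL, ENPP2, FOLR1, AQP1, CLIC6 and OTX2 for the choroid plexus and FOXJ1, PIFO and CFAP126 for the ependyma. They were chosen by symbol, and all 10 were found among the 28907 rows of a table of read counts per gene and passed the filter on low counts, which left 16756 genes. The counts came from sequenced RNA of the medio-basal hypothalamus, the floor of the brain around the third ventricle, of adult Alpine goats. The follicular group (5 goats) was in the part of the ovarian cycle before ovulation and was sampled in January, and the anestrus group (8 goats) had no cycles and was sampled in mid-May. RNA of each goat was mixed into 2 random equimolar pools per group, so each of the 4 libraries is a pool, and how many goats entered each is not given in the sources used here. Pool numbers are those of the library names and do not pair pools across groups. The titles number the anestrus pools the other way. The luteal libraries of the study were not analysed here. Season and ovarian state differ together between the groups.

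Choroid plexus epithelium moves water, ions and vitamins from blood to cerebrospinal fluid and secretes carrier proteins, of which transthyretin is the best known. Ependymal cells carry bundles of motile cilia, built by a programme under the transcription factor FOXJ1, that move the fluid along the ventricle wall. The choroid plexus of the third ventricle lies in the roof, away from the medio-basal floor. Many of the genes that mark it are also active elsewhere, such as ENPP2 in oligodendrocytes and AQP1 in other epithelia and in blood vessels.

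Totals ran from 14553821 to 25292678 counts per library. Levels are given as counts scaled to a common library total (CPM) after TMM scaling, which evens out libraries by the bulk of their genes. Differences are log2 fold changes, follicular minus anestrus, with the standard error and the 95% interval of edgeR's quasi-likelihood fit over all genes. A gene was called changed at a Benjamini-Hochberg adjusted p under 0.05. In all, 34 of 16756 genes were called (0.203%), 2 of them higher (0.0119%) and 32 lower (0.191%) in the follicular pools, and p-values measure the spread between 2 pools per group, not between goats. With 2 pools against 2, an exact permutation test cannot go below a p of 0.333, so none was run.

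None of the 10 genes was called, at adjusted p-values from 0.311 to 0.991 in edgeR, and 2 of them, ENPP2 and CLIC6, had an unadjusted p under 0.05, beside 8.55% of all genes tested. The log2 fold change was positive for 7 genes and negative for 3, beside 49.9% positive among all genes, and its median was 0.55, beside -0.00067 over all genes. Without follicular pool 1 that median was 0.22. For 6 of the 10 the pools of a group lay apart from those of the other, beside 38.3% of all genes. Of these 6, both follicular pools were higher for ENPP2, FOXJ1, PIFO and CFAP126 (4 genes, beside 17.6% of all genes), and both were lower for CLIC6 and OTX2 (2 genes, beside 20.7%). The 10 genes thus had no common direction and no common order of libraries: follicular pool 1 was highest for 4, follicular pool 2 for 3, anestrus pool 2 for 3 and anestrus pool 1 for 0. In these bulk samples fewer cells of a type and less RNA per cell cannot be told apart.

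**Figure D1:**
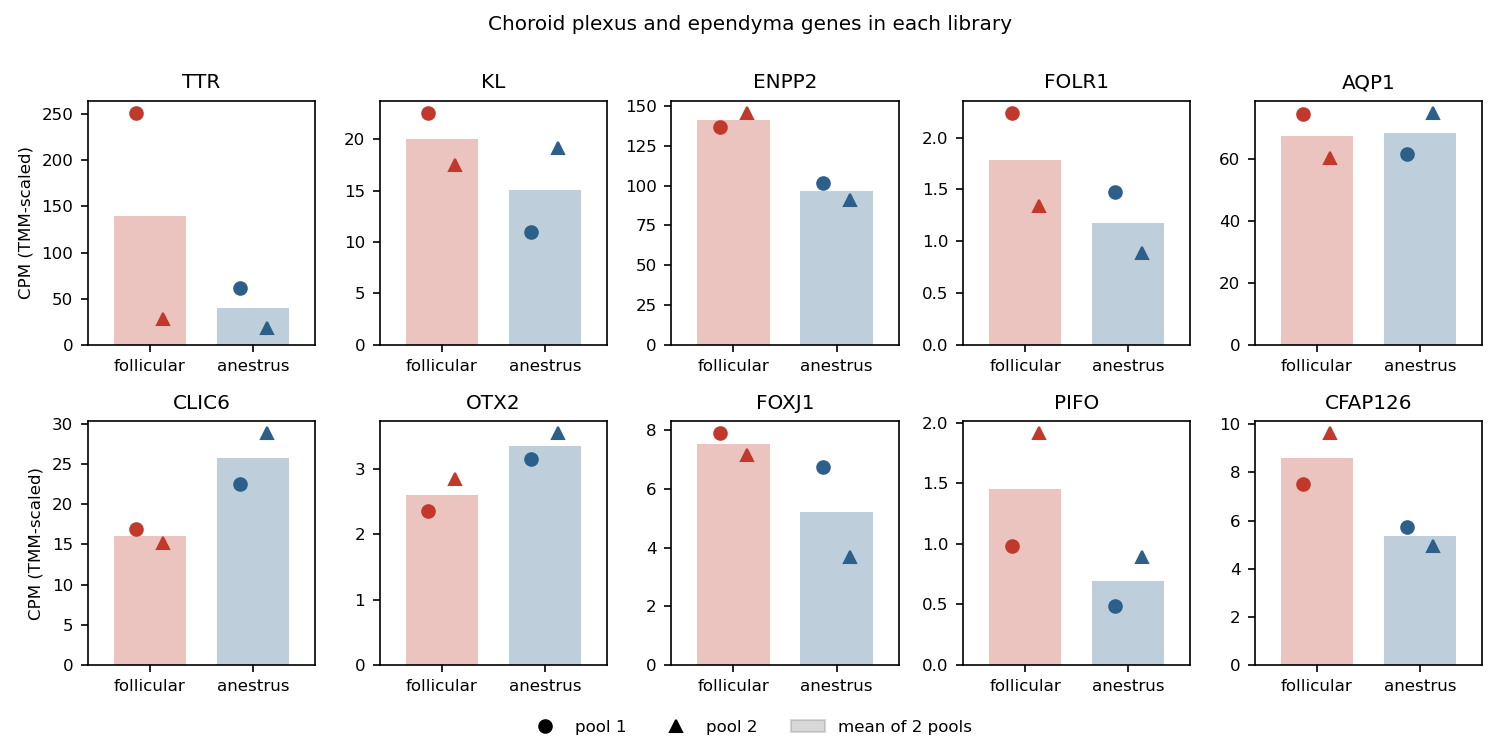
Level of each of the 10 genes in each library (CPM after TMM scaling, linear axis from 0), with circles for pool 1, triangles for pool 2 and bars for the mean of the 2 pools. TTR reaches 252 CPM in follicular pool 1 and lies at or under 61.1 CPM in the other libraries, while the pools of the other genes lie closer together.

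TTR encodes transthyretin, which carries thyroxine and, through retinol-binding protein, retinol. It had 252 and 27.4 CPM in follicular pools 1 and 2, against 61.1 and 17.7 CPM in anestrus pools 1 and 2, from 6399, 472, 871 and 318 counts in that order. A single library was thus high, and the groups overlapped, since anestrus pool 1 exceeded follicular pool 2. The follicular pools averaged 140 ± 159 CPM and the anestrus pools 39.4 ± 30.7 CPM (SD, n = 2 pools each), a log2 fold change of 1.84 ± 1.54 (95% interval -3.48 to 7.15, adjusted p = 0.862, edgeR). Without follicular pool 1 the log2 fold change was -0.49, the opposite direction. Within the follicular group, pool 1 was 9.18-fold above pool 2 (95% exact counting interval 8.36 to 10.1), and within anestrus pool 1 was 3.46-fold above pool 2 (3.04 to 3.94). These intervals cover counting error only.

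RBP4 and STRA6, which handle retinol together with transthyretin, did not show the high level of follicular pool 1. RBP4, the retinol-binding protein, had 63.6 and 49.6 CPM in the follicular pools, against 98.4 and 47.6 CPM in the anestrus pools. STRA6, the retinol receptor, had 32.2 and 26.4 CPM, against 32.0 and 22.0 CPM. Of 8 tested genes of thyroid hormone and retinol transport, 1 was called lower in the follicular phase and 0 higher. Over all genes, 0.191% were called lower and 0.0119% higher. The log2 fold change was positive for 5 of the 8, with a median of 0.06. The gene called was SLCO1C1, a thyroxine transporter of brain capillaries and choroid plexus, at 31.1 and 32.8 CPM in the follicular pools, against 79.3 and 102 CPM in the anestrus pools, a log2 fold change of -1.50 ± 0.19 (adjusted p = 0.0154, edgeR). Leaving out follicular pool 1 ended this call, at -1.45 with an adjusted p of 0.478 (edgeR).

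KL encodes klotho, a membrane protein that serves as co-receptor of the hormone FGF23 and is also shed into cerebrospinal fluid. It had 22.6 and 17.5 CPM in the follicular pools, against 10.9 and 19.1 CPM in the anestrus pools. Anestrus pool 1 was the low library, and the groups overlapped. The log2 fold change was 0.41 ± 0.31 (95% interval -0.27 to 1.10). Over the alternative settings it ran from 0.07, without anestrus pool 1, to 0.92, without anestrus pool 2. Of KL's partners and processing enzymes, 5 were tested and 0 were called, with a median log2 fold change of -0.04. The receptor FGFR1 had 144 and 106 CPM in the follicular pools, against 166 and 149 CPM in the anestrus pools, and FGF23 had 0 counts in all libraries.

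ENPP2 encodes autotaxin, the secreted enzyme that makes lysophosphatidic acid, and had the smallest p of the 10. Its level was 137 and 146 CPM in the follicular pools, against 102 and 90.8 CPM in the anestrus pools. Both follicular pools were above both anestrus pools, and the pools of a group lay close together. The follicular pools averaged 141 ± 6.21 CPM and the anestrus pools 96.3 ± 7.75 CPM (SD, n = 2 pools each), a log2 fold change of 0.55 ± 0.16 (95% interval 0.20 to 0.91, adjusted p = 0.311, edgeR). It was called in 1 of 14 alternatives, without anestrus pool 1, at a log2 fold change of 0.64. That fit leaves 1 anestrus library, and far more genes were called over all in it than in the main fit.

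Oligodendrocytes also express ENPP2. The summed level of 16 oligodendrocyte markers was 3731 and 5030 CPM in the follicular pools, against 3155 and 2059 CPM in the anestrus pools, and CLDN14 was the marker with 0 counts in all libraries. This sum had the same order of libraries as ENPP2, as had the sum of neuron markers given below, while single markers such as CNP and SOX10 were highest in follicular pool 1. Of the 15 tested, 0 were called, the log2 fold change was above 0 for all, and the median was 0.75. An unadjusted p under 0.05 was found for 11 of them in edgeR (73.3%, beside 8.55% of all genes), all higher in the follicular pools. MYRF, a transcription factor of myelination, had a log2 fold change of 1.29 ± 0.33. The part of oligodendrocyte RNA in the ENPP2 values was not tested.

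The receptors and phosphatases of lysophosphatidic acid gave 0 calls among 9 tested, with a median log2 fold change of 0.12. LPAR1, a receptor of this lipid, had 60.7 and 61.1 CPM in the follicular pools, against 56.4 and 55.7 CPM in the anestrus pools. PLPP1, a phosphatase that degrades lysophosphatidic acid, went the other way, with 107 and 128 CPM in the follicular pools, against 163 and 149 CPM in the anestrus pools. Its log2 fold change was -0.41 ± 0.17 (adjusted p = 0.53, edgeR).

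FOLR1 encodes folate receptor alpha, which takes folate across the choroid plexus. It had 2.24 and 1.34 CPM in the follicular pools, against 1.47 and 0.888 CPM in the anestrus pools, from 57, 23, 21 and 16 counts. Pool 1 was the higher library in each group, under numbers that do not pair the pools, and the groups overlapped. The log2 fold change was 0.63 ± 0.54 (95% interval -0.57 to 1.82).

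AQP1 encodes the water channel of the ventricular face of choroid plexus epithelium. It had 74.9 and 60.5 CPM in the follicular pools, against 61.7 and 75.2 CPM in the anestrus pools, and each group spanned nearly the same range. Its log2 fold change was -0.02 ± 0.19, a value whose sign changed with library totals or upper quartile scaling and when follicular pool 2 or anestrus pool 2 was left out, and its 95% interval was -0.43 to 0.40.

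CLIC6, of the chloride intracellular channel family, had 16.9 and 15.2 CPM in the follicular pools, against 22.5 and 28.9 CPM in the anestrus pools. Both follicular pools were below both anestrus pools. The follicular pools averaged 16.0 ± 1.24 CPM and the anestrus pools 25.7 ± 4.50 CPM (SD, n = 2 pools each), a log2 fold change of -0.68 ± 0.25 (95% interval -1.22 to -0.14, adjusted p = 0.44, edgeR). Its sign was negative under all 14 alternatives, from -0.85 to -0.44, and it was called under none of them.

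Other members of these families, with OTX1, CRX and other folate and water carriers, gave 0 calls among 11 tested and a median log2 fold change of 0.01. CLIC4, the family member of blood vessels, had 248 and 292 CPM in the follicular pools, against 175 and 266 CPM in the anestrus pools. AQP4, the water channel of astrocytes, had a log2 fold change of 0.54 ± 0.19 and FOLR2, the folate receptor of macrophages, of -0.09 ± 0.21.

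OTX2 encodes a homeodomain transcription factor needed to form and maintain the choroid plexus. It had 2.36 and 2.85 CPM in the follicular pools, against 3.15 and 3.55 CPM in the anestrus pools, from 60, 49, 45 and 64 counts. Both follicular pools were below both anestrus pools. The log2 fold change was -0.37 ± 0.40 (95% interval -1.26 to 0.52). Its relative OTX1 had 1.50 and 1.74 CPM in the follicular pools, against 3.15 and 3.66 CPM in the anestrus pools, with a log2 fold change of -1.08 ± 0.43 (adjusted p = 0.5, edgeR).

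FOXJ1 is the transcription factor that switches on genes of motile cilia. It had 7.91 and 7.15 CPM in the follicular pools, against 6.73 and 3.66 CPM in the anestrus pools. Both follicular pools were above both anestrus pools, with anestrus pool 2 the low library. The log2 fold change was 0.54 ± 0.37 (95% interval -0.27 to 1.36), and it was 0.21 without anestrus pool 2.

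PIFO, known in mice as pitchfork and linked to cilium disassembly, had 25 and 33 counts in the follicular pools, against 7 and 16 in the anestrus pools, or 0.984 and 1.92 CPM against 0.491 and 0.888 CPM. The follicular pools were above the anestrus pools, and pool 2 was above pool 1 in both groups. The log2 fold change was 1.03 ± 0.62 (95% interval -0.33 to 2.38).

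CFAP126, known in mice as Flattop and needed there to place basal bodies in ciliated cells, had 7.52 and 9.65 CPM in the follicular pools, against 5.75 and 4.94 CPM in the anestrus pools. Both follicular pools were above both anestrus pools. The follicular pools averaged 8.58 ± 1.51 CPM and the anestrus pools 5.34 ± 0.57 CPM (SD, n = 2 pools each), a log2 fold change of 0.68 ± 0.32 (95% interval -0.04 to 1.40, adjusted p = 0.614, edgeR).

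**Figure D2:**
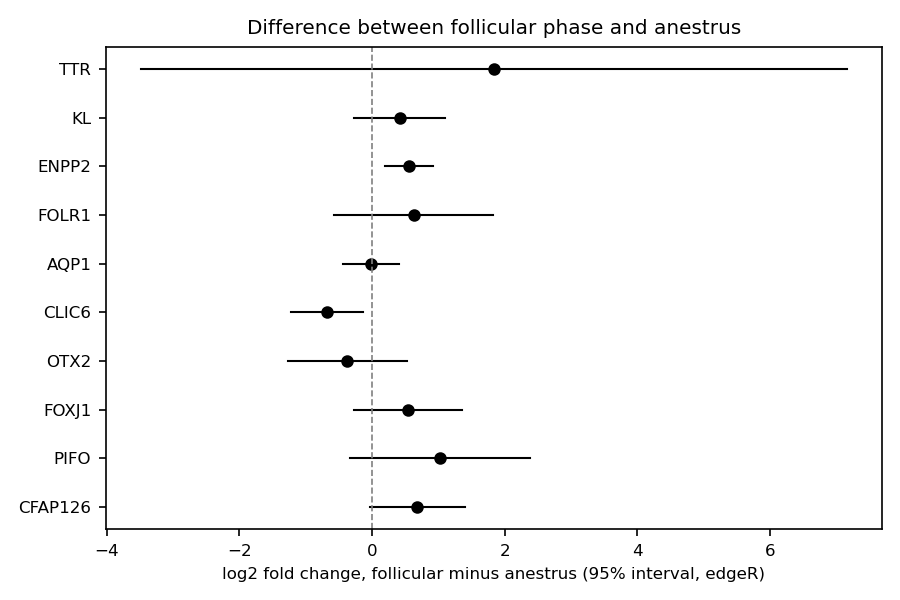
Log2 fold change of each of the 10 genes, follicular minus anestrus, as a point with its 95% interval from edgeR's quasi-likelihood fit, and a dashed line at 0. The interval includes 0 for 8 genes and excludes it for ENPP2 and CLIC6 before adjustment for all genes tested, and that of TTR runs from -3.48 to 7.15.

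The pools of a group differed far more for TTR than for the other 9 genes. Among 15704 genes with a mean of at least 1 CPM, 3 others had a ratio of follicular pool 1 to pool 2 as high as that of TTR or higher. For anestrus pool 1 to pool 2, 117 others did so. In either direction, 13 others were at least as far apart in the follicular group and 167 in anestrus. The median difference between follicular pools was 1.16-fold over the 15704 genes, and between anestrus pools 1.23-fold. For KL, anestrus pool 2 was 1.75-fold above pool 1 (95% exact counting interval 1.44 to 2.12), and for FOXJ1 anestrus pool 1 was 1.84-fold above pool 2 (1.33 to 2.55). For PIFO, follicular pool 2 was 1.95-fold above pool 1 (1.12 to 3.42). On the log2 CPM scale, the difference between pools of a group exceeded that between group means for 5 of the 10 genes, namely TTR, KL, FOLR1, AQP1 and FOXJ1, beside 73.6% of the 15704 genes.

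The summed level of the other 9 genes, most of it from ENPP2 and AQP1, was 272 and 262 CPM in the follicular pools, against 214 and 228 CPM in the anestrus pools. TTR alone made up 48.0% of the sum over all 10 in follicular pool 1 and 9.48% in follicular pool 2, against 22.2% and 7.19% in the anestrus pools.

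**Figure D3:**
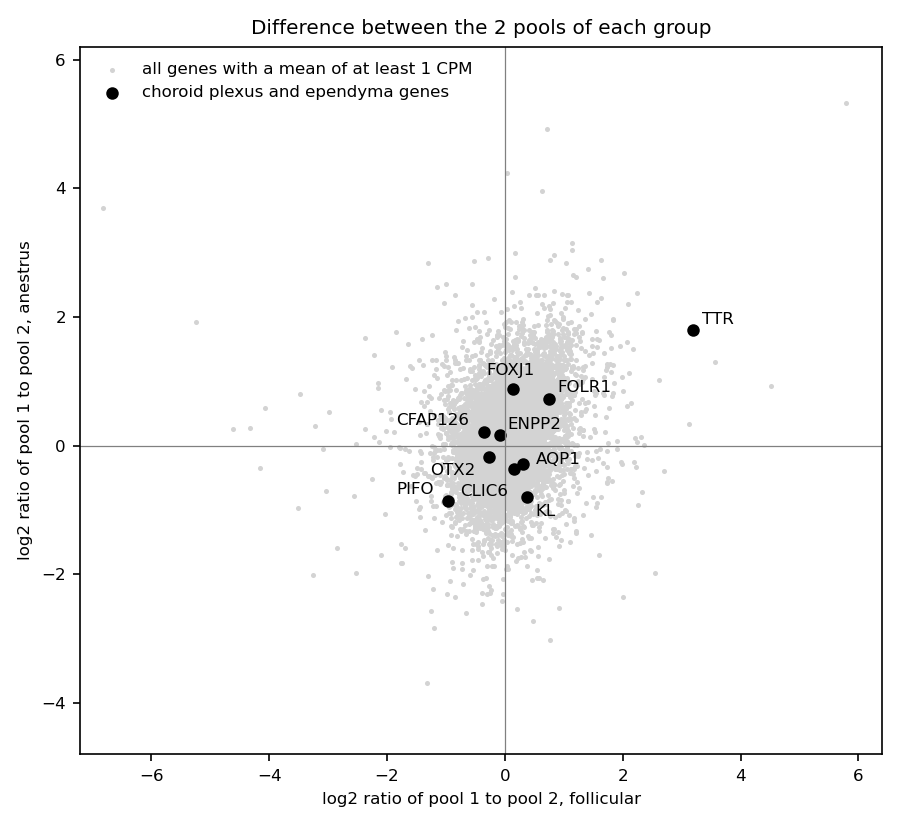
Log2 ratio of pool 1 to pool 2 in the follicular group (horizontal axis) and in anestrus (vertical axis), with grey points for 15704 genes of at least 1 CPM on average and black points for the 10 genes. TTR stands apart at 3.20 and 1.79, while the other 9 genes lie inside the grey cloud.

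Genes of the choroid plexus epithelium beyond the 10 were sparse in part. Of 29 found in the table, 6 were under 1 CPM in all libraries, among them KCNE2, a potassium channel subunit, CLDN2, a tight junction protein, and LMX1A, a transcription factor of the developing plexus. CLDN2 had 0.669 and 0.349 CPM in the follicular pools, against 0.14 and 0.0555 CPM in the anestrus pools, and KCNE2 lay at or under 0.197 CPM. KCNJ13, a potassium channel of this epithelium, had 4.96 and 3.43 CPM in the follicular pools, against 3.29 and 2.78 CPM in the anestrus pools. KCNE2 and CLDN2, which help to define this epithelium, were thus near the detection limit, and the name choroid plexus genes stands here for where the 10 are known to be expressed, not for cells shown to be in these libraries.

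Some of these other choroid plexus genes were also higher in pool 1 than in pool 2, and others were lower. SLC4A2, an anion exchanger, had 3.23 and 1.05 CPM in the follicular pools, against 2.17 and 0.444 CPM in the anestrus pools, the same order of libraries as TTR. Its pool 1 was 3.09-fold above pool 2 in the follicular group (95% exact counting interval 1.84 to 5.46) and 4.89-fold in anestrus (2.2 to 12.3). SLC29A4, a monoamine transporter, was 1.76-fold and 3.04-fold higher in pool 1 of the follicular and anestrus groups. WFIKKN2, a secreted protease inhibitor, and IGFBP2, which binds insulin-like growth factors, were 4.68-fold and 2.09-fold higher in follicular pool 1 than in follicular pool 2, and 0.79-fold and 1.32-fold as high in anestrus pool 1 as in anestrus pool 2. SLC4A5, a bicarbonate cotransporter, had the opposite order in anestrus, where pool 1 was 0.202-fold as high as pool 2 (0.0511 to 0.585), and its follicular pools stood at a ratio of 0.98 (0.637 to 1.52). TRPM3, CAB39L and F5 were lower in pool 1 than in pool 2 of both groups. Their ratios of pool 1 to pool 2 were 0.81, 0.72 and 0.74 in the follicular group, and 0.73, 0.87 and 0.75 in anestrus. The anestrus counting intervals of CAB39L (0.747 to 1.01) and F5 (0.531 to 1.04) included 1. Among the other tested genes of this list, HTR2C and IGF2 also had ratios below 1 in both groups. KCNJ13, CLDN1, CLDN3, SLC13A4, MSX1, STRA6 and RDH5 had ratios above 1 in both. Some of these ratios had intervals that included 1. The part of choroid plexus tissue in the TTR values was not tested.

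Of the 23 choroid plexus genes tested outside the 10, 0 were called and 4 had an unadjusted p under 0.05 in edgeR (17.4%, beside 8.55% of all genes), 3 with higher follicular levels (beside 4.26% of all genes) and 1 with lower ones (beside 4.29%), with a median log2 fold change of 0.28. MSX1, a homeobox gene, had 116 and 111 CPM in the follicular pools, against 228 and 200 CPM in the anestrus pools, a log2 fold change of -0.91 ± 0.16 (adjusted p = 0.0599, edgeR). MSX1 was called by DESeq2, with a replicate block and without a count filter. Over all genes these settings called 146, 90 or 130, and 300 genes, beside 34 in the main fit. The other settings that kept all pools did not call MSX1. When a pool was left out, it was called without either anestrus pool and not without either follicular pool. Its log2 fold change then ran from -0.96 to -0.82. SLC13A4, a sulphate transporter, had 21.1 and 20.1 CPM in the follicular pools, against 12.0 and 11.0 CPM in the anestrus pools, and PCP4L1 had 47.3 and 70.4 CPM against 35.8 and 34.9 CPM. ATP2B3, a calcium pump, had 12.2 and 10.5 CPM in the follicular pools, against 4.56 and 7.55 CPM in the anestrus pools.

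Of the 49 genes of ependyma and motile cilia tested outside the 10, 0 were called and 3 had an unadjusted p under 0.05 in edgeR (6.12%, beside 8.55% of all genes), all 3 higher in the follicular phase (beside 4.26% of all genes). A positive log2 fold change was found for 41 of the 49 (83.7%, beside 49.9% of all genes), and the median was 0.29. DRC1, of the regulatory complex of ciliary dynein, had 43.8 and 45.0 CPM in the follicular pools, against 32.1 and 32.1 CPM in the anestrus pools. ARMC3, an armadillo repeat gene, had 5.31 and 6.97 CPM against 3.23 and 3.66 CPM. For both, the follicular pools were above the anestrus pools. DNAI2, an intermediate chain of ciliary dynein, had 2.60 and 1.22 CPM in the follicular pools, against 1.05 and 0.333 CPM in the anestrus pools. CFAP52, a protein inside ciliary microtubules, had 9.13 and 10.2 CPM against 6.17 and 6.16 CPM. RSPH1, a radial spoke protein, had a log2 fold change of 0.01 ± 0.21. The summed level of 53 such genes was 1097 and 1124 CPM in the follicular pools, against 972 and 976 CPM in the anestrus pools.

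Markers of other cell types that a block of this tissue holds had medians of either sign. The median log2 fold change of astrocyte markers was 0.57, with 1 of 10 called, higher in the follicular phase, namely GFAP, the astrocyte filament (log2 fold change 1.01 ± 0.15), and neuron markers had a median of 0.37, with 0 of 12 called. All 10 astrocyte and all 12 neuron markers tested had a positive log2 fold change. An unadjusted p under 0.05 was found in edgeR for 6 astrocyte markers (60%) and 4 neuron markers (33.3%), beside 8.55% of all genes. Their summed levels were 9885 and 10890 CPM for astrocytes in the follicular pools, against 6158 and 6268 CPM in the anestrus pools. For neurons they were 5586 and 6339 CPM in the follicular pools, against 5128 and 4659 CPM in the anestrus pools. The calls of GFAP and, among the markers that follow, of DIO2 and CGA were lost without follicular pool 1, at adjusted p-values of 0.478, 0.55 and 0.256 (edgeR) and log2 fold changes of 1.03, -1.25 and -1.43. The part of tissue composition in the values of the 10 genes was not tested.

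Tanycyte, meningeal and pituitary markers had negative medians. Tanycytes, the elongated ependymal cells of the ventricle floor, had a median log2 fold change of -0.32, with 1 of 15 called, lower in the follicular phase, namely DIO2, the deiodinase that activates thyroid hormone. Markers of meninges and fibroblasts had a median of -0.28, with 0 of 15 called, and pituitary and pars tuberalis markers of -0.93, with 2 of 13 called lower, namely TSHB and CGA, which encode the thyrotropin subunits. Markers of blood vessels and blood had a median of 0.05 with 0 of 13 called. The shares with an unadjusted p under 0.05 in edgeR were 13.3% for tanycyte, 33.3% for meningeal and 46.2% for pituitary markers. The share was 0% for markers of blood vessels and blood, beside 8.55% of all genes. The tanycyte sum was 1638 and 1590 CPM in the follicular pools, against 2063 and 1893 CPM in the anestrus pools, so ciliated ependyma genes and tanycyte genes did not share a direction. The difference between these lists was not tested.

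**Figure D4:**
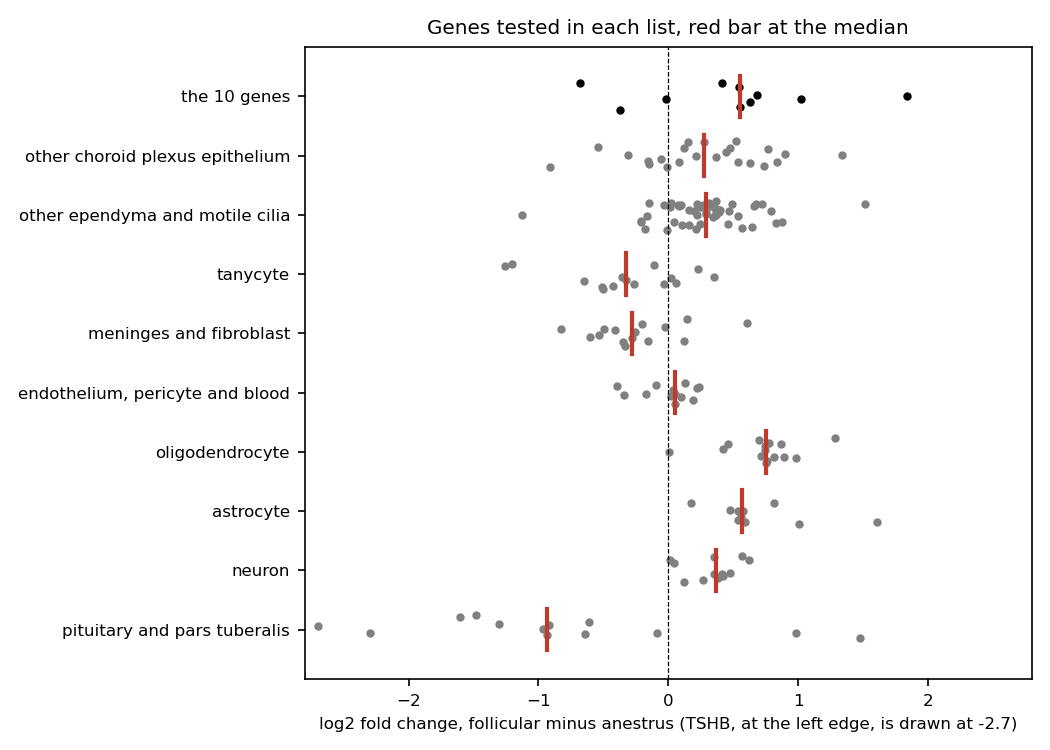
Log2 fold change, follicular minus anestrus, of each gene tested in the list of 10 and in 9 other lists of cell type markers, with a red bar at each median and TSHB, at -7.45, drawn at the left edge. The median is 0.55 for the 10 genes, 0.28 for other choroid plexus genes and 0.29 for other cilia genes, and -0.32 for tanycyte markers.

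The genes whose pattern over the 4 libraries was nearest to that of TTR were sought among symbols with a mean of at least 1 CPM, by the root mean square difference of centred log2 CPM. Among the nearest were A4GALT, at a difference of 0.569, LHB at 0.578, CHCHD6 at 0.584 and MIF at 0.591. LHB, the beta subunit of luteinizing hormone from the pituitary, had 118 and 27.9 CPM in the follicular pools, against 31.9 and 20.8 CPM in the anestrus pools. Other pituitary markers differed in which library was highest. CHGA, of secretory granules, was also highest in follicular pool 1, with 1570 and 932 CPM in the follicular pools, against 808 and 460 CPM in the anestrus pools. CGA was lowest in follicular pool 2, with 5232 and 4295 CPM in the follicular pools, against 13140 and 10310 CPM in the anestrus pools. FSHB and GH1 were lowest in follicular pool 1. FSHB, the beta subunit of follicle-stimulating hormone, had 17.3 and 52.2 CPM in the follicular pools, against 75.5 and 117 CPM in the anestrus pools, and GH1, growth hormone, had 1.81 and 13.1 CPM against 11.0 and 33.3 CPM. The part of pituitary RNA in the TTR values was not tested.

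Within the 10, the gene nearest to TTR was FOLR1, at a difference of 1.04, and the farthest was PIFO, at 1.71. For FOXJ1 the nearest genes were RBFOX3 at 0.0438, PQLC1 at 0.0524, KISS1 at 0.0541, TSPAN15 at 0.061 and TNFRSF4 at 0.0618, all lowest in anestrus pool 2. RBFOX3, a neuron marker, had 10.5 and 9.76 CPM in the follicular pools, against 8.55 and 4.66 CPM in the anestrus pools. With 4 libraries these likenesses are a description.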

How the data were processed

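Polyadenylated RNA of the medio-basal hypothalamus was sequenced in pools, from TriReagent extracts and Truseq stranded mRNA libraries, per the labels' protocols. Read counts were deposited by the authors as whole numbers per gene, with no normalization. The submitters' processing notes name featureCounts 2.0.0, SAMtools 1.9, TopHat2 2.1.1 and Bowtie2 2.3.5.1. No source used here gives the genome build, annotation, strand setting or treatment of multi-mapping reads, so no coordinates are printed. In RefSeq's genes of the ARS1.2 assembly, ENPP2 overlaps a transfer RNA and the other 9 genes overlap no other gene.

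Counts were filtered with filterByExpr (minimum count 10, minimum total 15), scaled by TMM and fitted in R 4.3.3 with edgeR 4.0.16 (robust estimateDisp, glmQLFit and glmQLFTest, 1 mean per group, 2 residual degrees of freedom). Standard errors are the log2 fold change divided by the square root of F. Likeness used log2 CPM with a prior count of 2. The steps were tested on simulated counts. Pool ratios have exact 95% binomial intervals, which cover counting error only.

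The 10 genes and 13 further lists (242 entries in all, 229 matched) were chosen with earlier results of these data known. The rule for other named genes took those called, then those with the smallest p, up to 4 per list, and the 5 most like TTR and FOXJ1. Not all genes that this rule names are reported here. RBP4, STRA6, FGF23, LPAR1, CLIC4, AQP4, FOLR2, KCNE2, CLDN2, LMX1A, KCNJ13, RSPH1, SLC4A2, SLC29A4, WFIKKN2, IGFBP2, CNP, SOX10, CHGA, FSHB and GH1 were named after their values were seen, where the rule did not take them. So were SLC4A5, TRPM3, CAB39L, F5, HTR2C, IGF2, CLDN1, CLDN3 and RDH5. Promoter motifs that had been planned were not searched, since no sequence was used here.

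Alternatives were other scalings (RLE, library totals, upper quartile), no count filter, a mean CPM of at least 1, no robust estimation, DESeq2 1.42.0, limma-voom (limma 3.58.1), leaving out each pool, and a replicate block.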

Additional observations from a re-analysis of the deposited data

How the results depend on the processing

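Over 14 alternatives for each of the 10 genes, 134 of 140 values kept both direction and side of the threshold. TTR changed sign without follicular pool 1, with a range of -0.486 to 2.99 when a pool was left out. AQP1, near 0 throughout, changed sign with library totals (0.000744), upper quartile scaling (0.00442), without follicular pool 2 (0.129) and without anestrus pool 2 (0.179), with a range of -0.164 to 0.179 when a pool was left out, and the cause was not tested. The number of the 10 called was 0 or 1 when a pool was left out (ENPP2, without anestrus pool 1) and 0 in the other alternatives. Their median log2 fold change of 0.548 ran from 0.218 to 0.658 when a pool was left out. Over all genes 34 were called, and 300 without a count filter, 146 by DESeq2, and 4 to 810 when a pool was left out. Leaving out a pool leaves 1 library in its group, which is then assumed to vary like the other group.

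Of the other choroid plexus genes, 0 were called, and 2 without a count filter (MSX1 and PCP4L1), 1 by DESeq2 (MSX1) and 0 to 5 when a pool was left out. Of the other cilia genes 0 were called, and 0 to 1 when a pool was left out. MSX1 was put through the same alternatives after the data were seen. With all pools kept, its adjusted p ran from 0.000455 (edgeR, no count filter) to 0.0685 (edgeR, no robust estimation). When a pool was left out, its log2 fold change ran from -0.958 to -0.821.

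The anestrus pools are numbered one way in the titles and the other way in the library names, so the numbers do not pair the pools. Across genes, the difference of pool 1 and pool 2 correlated between the groups at 0.26 with the library names and at -0.26 with the titles. With a replicate block by library names 90 genes were called over all, and 130 by the titles' numbers. In each of these fits 0 of the 10 genes, 1 other choroid plexus gene (MSX1) and 0 other cilia genes were called. FOLR1, PIFO and OTX2 rest on 7 to 64 counts per library, and whether depth limits their calls was not tested.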
